A study of Mus musculus with 7 samples.

Results

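NRF2, encoded by Nfe2l2, is the transcription factor that raises antioxidant genes when cells meet oxidants or electrophiles. It is made continuously and is held low by KEAP1, which hands it to a ubiquitin ligase for degradation. Modification of KEAP1 cysteines lets NRF2 accumulate, pair with small MAF proteins and bind antioxidant response elements near its targets. Because this control acts on the protein, the amount of Nfe2l2 transcript does not report NRF2 activity, and the target transcripts are the usual readout. In myeloid leukemia cells the glutathione and thioredoxin arms of this programme buffer the oxidants that proliferating blasts produce.

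The genes described are Nfe2l2 and 9 of its classical targets, Hmox1, Nqo1, Gclm, Gclc, Txnrd1, Srxn1, Prdx1, Slc7a11 and Gsr. Their probes were taken by gene symbol from the platform annotation, and each probe was kept apart. This gave 14 of the 25697 probes on the array, for 9 of the 10 genes. No probe carried the symbol Gsr, so glutathione reductase was not measured here.

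RNA came from freshly isolated mouse cells that the labels call LSCe and leukemia stem cells. They spent 6 h in suspension culture with 5 µM BRD7116, a small molecule that the labels give by code name, or with vehicle alone. Both groups contained 0.2% DMSO. There were 5 BRD7116 arrays and 2 DMSO arrays, Illumina BeadChips hybridized with biotin-labelled RNA, and the one comparison asks which transcripts differ between compound and vehicle. The sources used here do not give the leukemia model, its driving oncogene, the strain or age of the mice, or whether cells of several mice were pooled. No label says that replicates were separate cultures or animals, so the p-values cover only the spread among these arrays, and that spread may be technical. In RNA of many cells, fewer cells of a type and less RNA per cell cannot be told apart.

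The 7 arrays lay on 3 chips. The first chip, called the dim chip below, held BRD7116 replicate 1 and DMSO replicate 2 and detected 4585 and 4412 probes, against 6749 to 8451 on the other arrays. Its brightest probe read at most 4704 intensity units, against at least 27582 elsewhere. DMSO replicate 1 and BRD7116 replicate 2 shared the second chip, and BRD7116 replicates 3, 4 and 5 had the third to themselves. The first principal component, along which the dim chip stood off, held 61.2% of the variance. Over the whole array 12% of probes were detected on all arrays and 56.7% on none. Of the markers of leukemic progenitors, 9 of 13 probes were detected on all arrays, among them Meis1 and a Hoxa9 probe. Cd34 was detected on none and Kit had no probe. Among markers of red cell precursors, 8 of 12 probes were detected on no array, among them Alas2, Klf1, Epor, Slc4a1 and Car2. The summed level of this list was 965 to 1225 normalized units with BRD7116 and 1367 to 1717 with DMSO, and only Hba-a1 and Tfrc, the transferrin receptor that other dividing cells also carry, had tested probes. Among macrophage markers, 7 of 11 probes were detected on no array, and their summed level was 516 to 604 with BRD7116 and 384 to 503 with DMSO. Only Adgre1 and Vcam1 had tested probes in that list, and Vcam1 read 7.58 and 5.87 on DMSO replicates 1 and 2, the latter on the dim chip. Of the neutrophil markers, 3 of 11 probes were detected on all arrays, and their summed level was 4719 to 6222 with BRD7116 and 5693 to 7095 with DMSO. Among B cell markers only Cd79b had tested probes, and no T cell marker had one. The part that any of these cell types had in the values below was not tested.

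The DNA element through which NRF2 acts was looked for in the promoters of these genes. They were picked as known NRF2 targets, so its presence is a description and not independent of that choice. RefSeq promoter windows of build GRCm38.p6, from 250 bases before the start site to 50 after it, were at hand for 7 of the 10 genes. The core of the antioxidant response element, TGACNNNGC, was searched on both strands. It occurred in the windows of 5 of these 7 genes, Nfe2l2, Gclm, Txnrd1, Srxn1 and Prdx1, and not in those of Nqo1 and Slc7a11. Txnrd1 had 3 windows, of which 1 held a match. Over all 27025 genes with a window, 14.0% held the same letters, and over the 32851 single windows 12.4% did. A match is a run of letters and not a shown binding site, and a window without one says nothing of elements farther away. The stretches around the matches are shown to let the elements be compared, each 5′ to 3′ on the strand of its gene with the 9 matching bases in capitals. In Nfe2l2 the element reads forward, and in the other 4 genes it lies on the opposite strand and appears as its reverse complement.
Nfe2l2 (chr2:75704875-75704913, minus strand): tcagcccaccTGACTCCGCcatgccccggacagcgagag
Gclm (chr3:122245403-122245451, plus strand): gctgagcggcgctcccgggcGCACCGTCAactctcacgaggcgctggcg
Txnrd1 (chr10:82859094-82859142, plus strand): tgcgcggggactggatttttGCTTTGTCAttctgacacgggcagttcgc
Srxn1 (chr2:152105532-152105573, plus strand): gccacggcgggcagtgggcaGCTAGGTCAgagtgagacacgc
Prdx1 (chr4:116685446-116685494, plus strand): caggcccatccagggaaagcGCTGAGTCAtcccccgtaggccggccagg

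Relative to the start site, the matches in Prdx1 and Gclm lay at nearly the same place, at positions -133 to -125 and -134 to -126. That of Txnrd1 lay at -92 to -84 and that of Nfe2l2 farther out at -240 to -232, while that of Srxn1 lay downstream of the start, at 29 to 37. The Prdx1 element, TGACTCAGC when read on its own strand, was the only one of the 5 that also contained the AP-1 element TGANTCA. The probes of the genes that shared the core were not alike in their signal. A Prdx1 probe was detected on all arrays, and the Gclm probe and Srxn1 probes ILMN_2667346 and ILMN_2677772 on most. Each probe of Nfe2l2 and Txnrd1 was detected on at most 1 array, and another probe each of Prdx1 and Srxn1 on none. Each probe has its own response, so this does not rank the genes.

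Most probes for these genes read at or near background on most arrays of both groups. A probe was called detected where its detection p, which ranks it among negative controls, was under 0.05. Of the 14 probes, 5 were detected on no array, 3 on a single array and only 1, a Prdx1 probe, on all 7. Over the whole array 56.7% of probes were detected on no array and 12% on all, and with 14 probes the members are not set apart from these shares. A probe without signal may fail to report an expressed gene, as the Prdx1 probes show, 1 detected on all arrays and the other on none. A probe was tested where at least 2 arrays detected it, which held for 6 member probes of 5 genes (Prdx1, Srxn1, Gclm, Nqo1 and Slc7a11) and for 33.5% of all probes. Nfe2l2, Hmox1, Gclc and Txnrd1 had no tested probe.

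**Figure D1:**
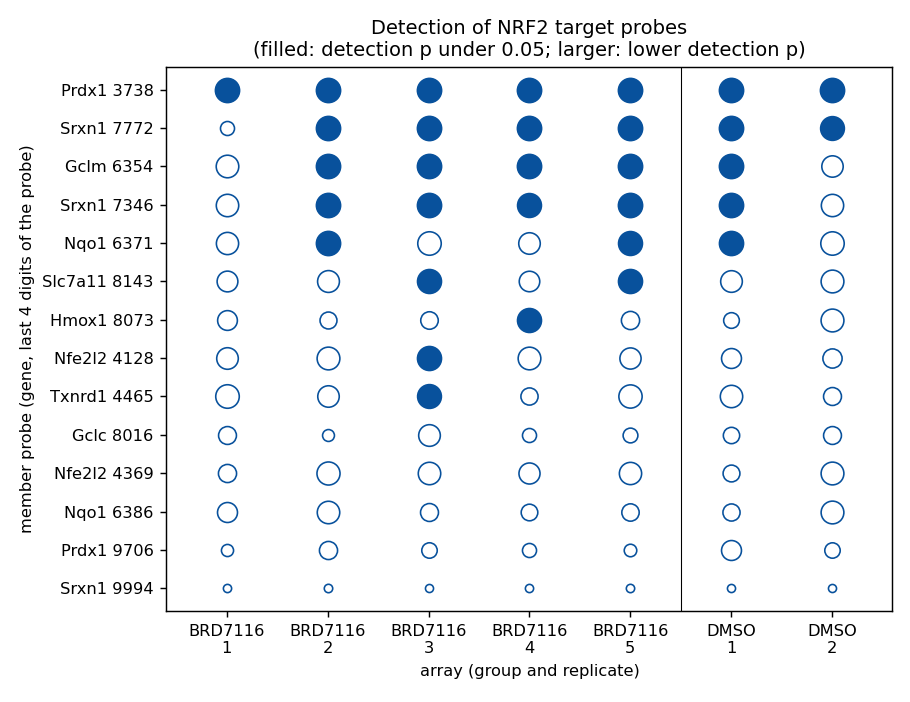
Detection of the 14 member probes (rows) on the 7 arrays (columns). Filled circles have a detection p under 0.05 and larger circles a lower detection p. Only the top Prdx1 row is filled throughout, BRD7116 replicate 1 and DMSO replicate 2 of the dim chip detected 1 and 2 member probes, and the other arrays detected 5 to 7.

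Nfe2l2 itself was hardly measurable. Its 2 probes gave 150 to 224 and 161 to 221 intensity units over all arrays, and the second, ILMN_1224128, was detected on BRD7116 replicate 3 alone. On the normalized log2 scale this probe read 5.00 to 5.35 with BRD7116 and 4.96 and 4.99 with DMSO, so the treated arrays lay just above both controls. The other Nfe2l2 probe, ILMN_1214369, overlapped, with 4.92 to 5.24 treated and 4.82 and 5.41 control. When all probes were fitted regardless of detection, the log2 fold changes were 0.21 for ILMN_1224128 (95% interval -0.031 to 0.46, limma adjusted p = 0.78) and -0.042 for ILMN_1214369 (-0.43 to 0.35, limma adjusted p = 0.976). The paired probes therefore gave no common direction, at levels where the array barely separates signal from background.

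Heme oxygenase 1, encoded by Hmox1, breaks heme down to biliverdin, iron and carbon monoxide, and it is among the most inducible NRF2 targets. Its single probe was detected only on BRD7116 replicate 4, at a normalized log2 level of 5.51. On the other treated arrays it read 4.82 to 5.04, and in the controls 4.79 and 5.44. The highest control array thus nearly equalled the one treated array on which the gene was detected, and the groups overlapped. The fit to all probes gave a log2 fold change of -0.10 with a 95% interval of -0.69 to 0.48 (limma adjusted p = 0.958). These values are at background, and no fold is read from them.

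The catalytic subunit of glutamate-cysteine ligase, Gclc, sets the rate of glutathione synthesis, and its probe was detected on no array. It read 4.61 to 5.03 treated and 4.81 and 4.93 control on the normalized log2 scale. Txnrd1, thioredoxin reductase, which returns thioredoxin to its reduced form with NADPH, was detected on BRD7116 replicate 3 alone. Its highest normalized level, 5.97, came from BRD7116 replicate 1 on the dim chip, where its detection p was 0.0639. The other treated arrays read 4.83 to 5.24 and the controls 4.93 and 5.14. The fit to all probes gave log2 fold changes of -0.07 for Gclc (95% interval -0.37 to 0.23) and 0.23 for Txnrd1 (-0.45 to 0.91). These differences are between values at background, and no fold is read from them.

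Prdx1 gave the clearest signal of the set. Peroxiredoxin 1 is the abundant cytosolic enzyme that reduces hydrogen peroxide through a reactive cysteine. Probe ILMN_1223738 read 190, 429, 493, 298 and 461 intensity units on BRD7116 replicates 1 to 5, and 345 and 228 on DMSO replicates 1 and 2. After normalization the log2 levels were 7.14, 7.40, 8.04, 7.60 and 7.48 with BRD7116 and 7.49 and 7.70 with DMSO. Both controls lay inside the range of the treated arrays. The means were 7.53 ± 0.33 (SD, n = 5) and 7.60 ± 0.15 (SD, n = 2), and the estimated log2 fold change was -0.069, standard error 0.25 (limma adjusted p = 0.928). The 95% interval of the fold ran from 0.635 to 1.43. The dim chip alone gave a log2 difference of -0.57 and the second chip alone -0.093. With chip as a block the estimate was -0.33 (limma adjusted p = 0.58), which is the mean of these within-chip differences. Without the dim chip, where DMSO replicate 1 is the only control, the estimate was 0.14. A second Prdx1 probe, ILMN_2989706, was detected on no array and read 4.65 to 4.96 on the log2 scale.

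Gclm encodes the modifier subunit that makes glutamate-cysteine ligase more efficient. It had the highest estimate of the tested probes, and its values differed more between chips than between groups. Outside the dim chip, BRD7116 replicates 2 to 5 gave 371, 320, 275 and 362 intensity units and DMSO replicate 1 gave 292. Their normalized log2 levels were 7.06, 7.13, 7.38 and 6.93 against 7.02, so the control lay within the treated range. On the dim chip Gclm was not detected, at 5.43 for BRD7116 replicate 1 and 5.17 for DMSO replicate 2. Over all 7 arrays the means were 6.79 ± 0.77 (SD, n = 5) and 6.09 ± 1.31 (SD, n = 2), with a log2 fold change of 0.69 and a standard error of 0.62 (limma adjusted p = 0.751). The 95% interval of the fold, 0.601 to 4.35, includes both a fall and a rise. On the log2 scale the dim chip alone gave a difference of 0.27, and the second chip alone gave 0.032. It was -0.25 without DMSO replicate 2, 1.63 without DMSO replicate 1 and 1.09 without BRD7116 replicate 1.

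Srxn1 encodes sulfiredoxin, which repairs over-oxidized peroxiredoxins such as Prdx1, and it had 3 probes, of which 2 were tested. Probe ILMN_2677772 read 4.75, 5.84, 6.19, 6.77 and 6.26 on the log2 scale with BRD7116 and 6.43 and 6.29 with DMSO. It was detected on every array but BRD7116 replicate 1, the lowest, and both controls lay inside the treated range. Its estimated log2 fold change was -0.40, standard error 0.47 (limma adjusted p = 0.792). The dim chip alone gave -1.54 and the second chip alone -0.59. With chip as a block the estimate was -1.07 (limma adjusted p = 0.375), the mean of these within-chip differences, and without BRD7116 replicate 1 it was -0.10. Without the dim chip, with DMSO replicate 1 as the only control, it was -0.19.

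Probe ILMN_2667346 of Srxn1, detected on 5 arrays, read 5.396, 6.08, 5.46, 5.48 and 5.95 with BRD7116 and 5.93 and 5.31 with DMSO on the log2 scale. The groups overlapped, and the estimate was a log2 fold change of 0.05, standard error 0.28 (limma adjusted p = 0.954). It was -0.28 without DMSO replicate 2 and 0.37 without DMSO replicate 1. The third Srxn1 probe, ILMN_1229994, read 83.9 to 130 intensity units and was detected on no array; its treated arrays, at 4.33 to 4.39 on the log2 scale, lay just above the controls at 4.33 and 4.32. The levels of different probes of the gene cannot be set against each other, since each probe has its own response.

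Nqo1 encodes a quinone reductase that is widely used as a marker of NRF2 activity. Probe ILMN_2726371 read 5.33, 5.95, 5.19, 5.06 and 5.35 on the log2 scale with BRD7116 and 5.71 and 5.81 with DMSO. It was detected on BRD7116 replicates 2 and 5 and on DMSO replicate 1. Only BRD7116 replicate 2 lay above the controls, and the other 4 treated arrays lay below both. DMSO replicate 2, on the dim chip, did not detect the probe at 5.81, and the lowest detected level on that array was 6.20. On the arrays of the other chips the lowest detected levels were 5.23 to 5.42. Levels near background are therefore not comparable between the dim chip and the others. The estimated log2 fold change was -0.38, standard error 0.26 (limma adjusted p = 0.704). The dim chip alone gave a difference of -0.47, and the second chip alone gave 0.24. The other Nqo1 probe, ILMN_2766386, was detected on no array and read 4.81 to 5.15 treated and 4.84 on DMSO replicate 1, with its highest value on DMSO replicate 2.

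Slc7a11 encodes the cystine transporter subunit xCT, which supplies cysteine for glutathione and is also a target of ATF4. Its probe was detected on BRD7116 replicates 3 and 5, at normalized log2 levels of 5.31 and 5.39, and on neither control. The undetected arrays read 4.99 to 5.13 treated and 5.06 and 5.42 control, so the highest value of all came from an array that did not detect the gene. That array was DMSO replicate 2 on the dim chip. With both controls at background the probe has only a bound there, and the bound gave no fold above 1. The estimated log2 fold change was -0.061, standard error 0.20 (limma adjusted p = 0.917).

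**Figure D2:**
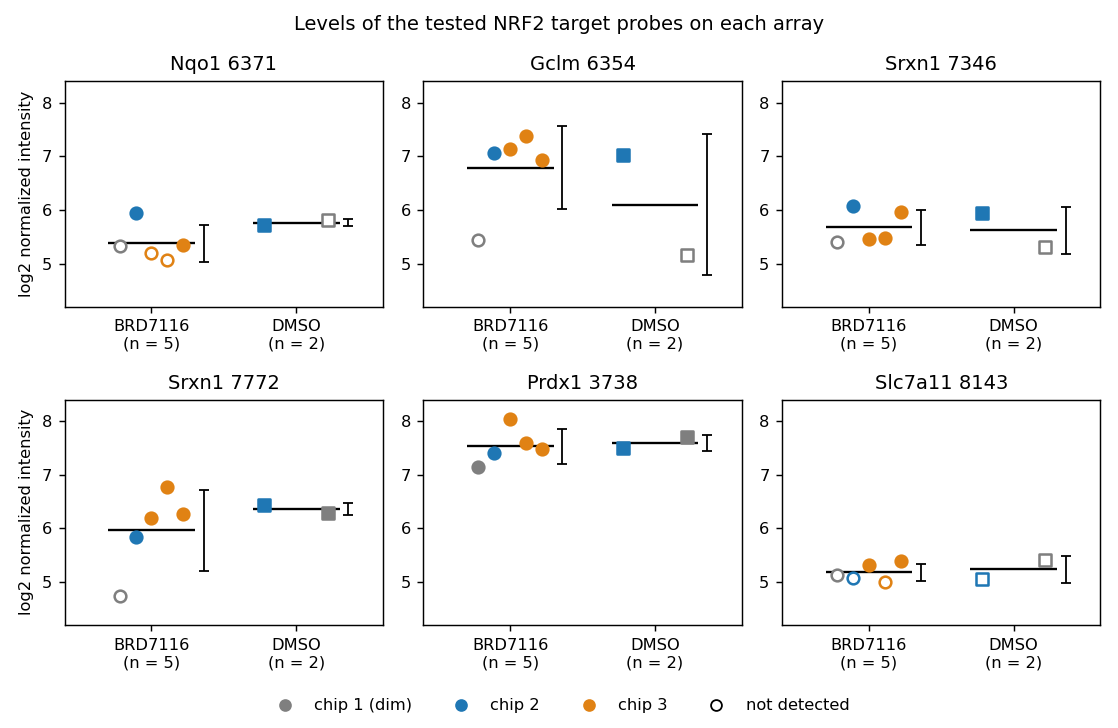
Normalized log2 intensity of the 6 tested probes on each array, coloured by chip, with open symbols where the probe was not detected. Horizontal lines are group means and the bars beside them 1 SD (BRD7116, n = 5; DMSO, n = 2). The low Gclm values of both groups, 5.43 and 5.17, come from the dim chip, and for all 6 probes the groups overlap.

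Over the list, no member passed the test. Of the 6 tested probes 0 passed an adjusted p of 0.05 in limma, and 0 had an unadjusted p under 0.05. With chip as a block, Srxn1 ILMN_2677772 had an unadjusted p of 0.00935 in limma, and 0.0446 with chip as a random block, where its adjusted p was 0.375 and 0.403. In these settings 1080 and 1049 of the 8613 probes tested had an unadjusted p under 0.05 in limma. In the main fit, without chip, 0% of all 8613 probes passed the adjusted threshold. There 6.66% had an unadjusted p under 0.05, 3.23% higher and 3.44% lower with BRD7116. In 0 of the 6 did the treated arrays lie wholly above or wholly below the controls, which held for 10.8% of all probes tested, 5.7% above and 5.12% below. The log2 fold change was above 0 for 2 probes and below 0 for 4, with a median of -0.065, against a median of 0.072 and 57.4% above 0 over all probes tested. With so few probes these counts describe the list and do not set it apart from other genes. Across the alternative settings run, no member probe passed, with limma adjusted p from 0.201 to 1.

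**Figure D3:**
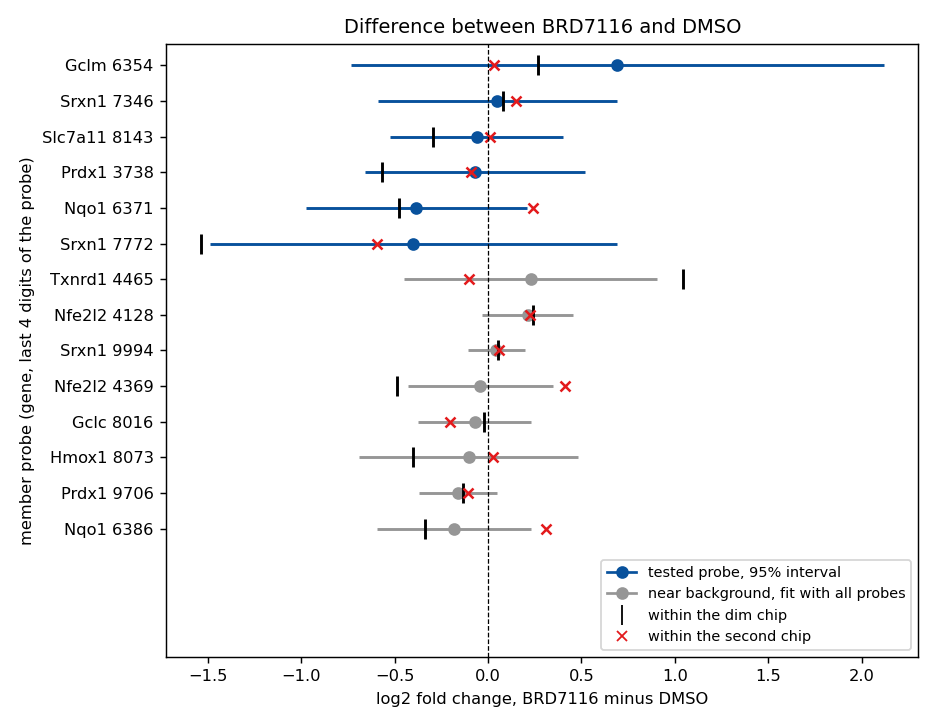
Log2 fold change of BRD7116 against DMSO for each member probe, with its 95% interval. Blue marks the 6 tested probes and grey the 8 near background, black ticks the difference within the dim chip and red crosses that within the second chip. All 6 blue intervals include 0, and the widest, for Gclm, runs from -0.74 to 2.12.

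The intervals state what size of change the arrays could still hold. The upper ends were 1.43-fold for Prdx1, detected on all arrays, and 1.61-fold for Srxn1 ILMN_2667346, detected on 5 of 7. For Srxn1 ILMN_2677772 the interval ran from 0.356-fold to 1.62-fold. Normalized values of probes near background understate true ratios, so these ends are no limits on the change in the cells. For Hmox1, Gclc, Txnrd1 and Slc7a11, which no control array detected, no limit is given, nor for Nqo1, which 3 of 7 arrays detected.

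**Figure D4:**
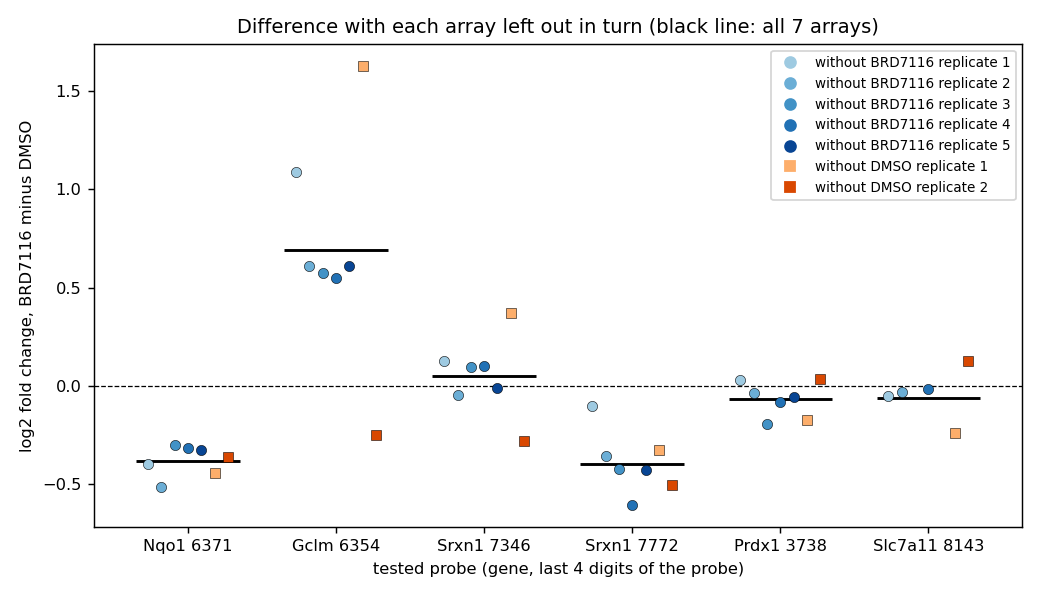
Log2 fold change of the 6 tested probes with each array left out in turn (coloured symbols) and with all 7 arrays (black lines). The Gclm estimate moves from -0.25 without DMSO replicate 2 to 1.63 without DMSO replicate 1, and Slc7a11 has no value where BRD7116 replicate 3 or 5 was left out because it then failed the detection filter.

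Other genes of the pathway were grouped into 6 lists of regulators and enzymes, 93 genes in all, of which 83 had a probe and 60 a tested one. None of the 74 tested probes passed the threshold in limma, in either direction. In limma, an unadjusted p under 0.05 was reached by 6 probes, which is 8.11% against 6.66% over all probes tested in either direction. All 6 were higher with BRD7116, where the share over all probes tested was 3.23%, and 0 were lower, against 3.44%. For 8 probes the groups did not overlap, which is 10.8% against 10.8%. Of these, 6 were higher and 2 lower, while over all probes tested 5.7% were higher and 5.12% lower. Without regard to direction both shares are near the background of the array. The share of higher probes with an unadjusted p under 0.05 was above that background. It rests on 6 probes, those of Mafg, Nfe2, Gsto1, Gpx4, Mthfd2 and Hmox2. The Mthfd2 probe was detected on no control array, and those of Gsto1, Gpx4 and Hmox2 on only 1. On the second chip Gsto1 and Hmox2 were lower with BRD7116, and the others were higher. Whether the share differs from the array was not tested.

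**Figure D5:**
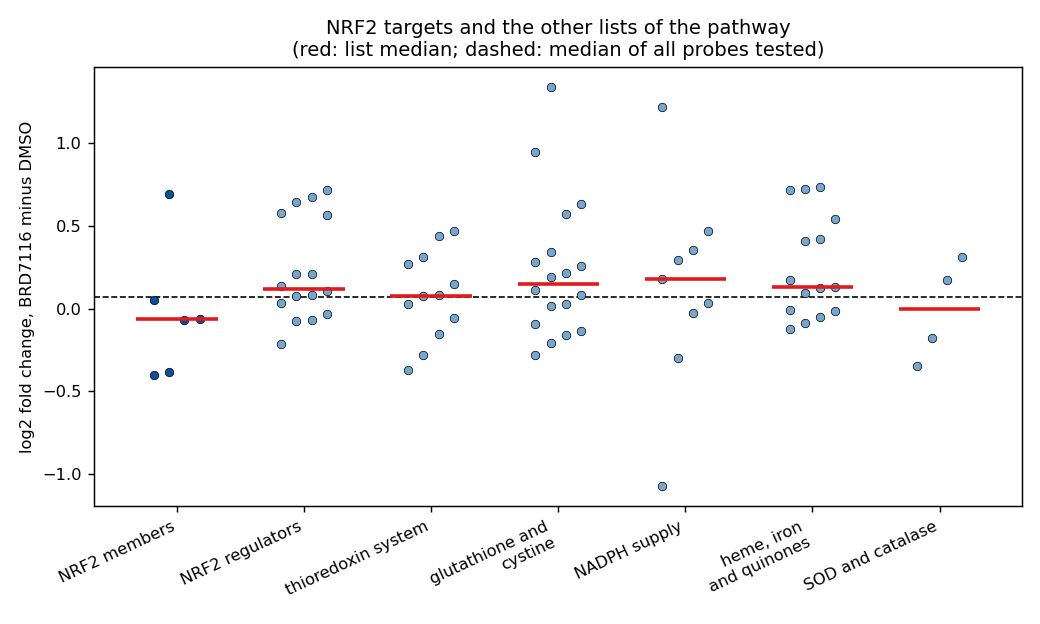
Log2 fold change of every tested probe of the NRF2 members and of the 6 other lists of the pathway, with list medians in red and the median of all probes tested, 0.072, dashed. The list medians lie between -0.065 and 0.18, and single probes spread from -1.08 to 1.34.

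Of the regulators of NRF2, 9 of 22 probes were detected on all arrays, against 1 of 14 for the members and 12% over the whole array. Of 16 tested probes, 12 had a log2 fold change above 0 and 4 below, with a median of 0.12. Over all probes tested 57.4% were above 0, with a median of 0.072. The detection filter can be met by treated arrays alone, as it was for Bach1 and for Keap1 ILMN_2621346 and ILMN_2707771, all among the 12. Counts above 0, here and in the lists below, are therefore not independent of the filter. Cul3, the ubiquitin ligase scaffold that KEAP1 recruits, gave a log2 difference of -0.032 (standard error 0.19). Park7, which encodes the redox sensor DJ-1, had 0.035 (standard error 0.17). The p62 adaptor gene Sqstm1, a competitor for KEAP1 and itself an NRF2 target, had 0.21 (standard error 0.17), and all 5 treated arrays, at 8.61 to 8.93, lay above the controls at 8.55 and 8.56. Sqstm1 and the genes of the next 3 sentences were chosen after their values were seen. The NRF2 partner Mafg read 7.94 to 8.399 with BRD7116 and 7.92 and 7.07 with DMSO on the log2 scale. The estimated log2 fold change was 0.72, standard error 0.26 (unadjusted p = 0.0241, limma adjusted p = 0.689), and it was 0.29 without DMSO replicate 2 and 1.14 without DMSO replicate 1. Nfe2, which encodes a related MAF partner of the erythroid and megakaryocyte lineages, read 9.39 to 9.82 treated and 8.95 and 9.18 control, with a log2 fold change of 0.56 (standard error 0.20, unadjusted p = 0.0229, limma adjusted p = 0.689).

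Keap1, the repressor of NRF2, had 4 tested probes, and their estimates differed in sign. Their log2 fold changes were -0.067, 0.14, 0.65 and 0.67. The probe with 0.65, ILMN_2707771, was detected on 4 treated arrays and on no control, and all treated arrays lay above both controls, by a margin as small as 0.021 within the dim chip. With both controls at background, the bound gave no fold above 1. The probe with 0.67, ILMN_2993267, had differences of 1.47 on the dim chip and -0.40 on the second chip. No direction is therefore given for Keap1, and these probes too were singled out after their values were seen.

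In the thioredoxin, peroxiredoxin and glutaredoxin system, 8 of 12 tested probes had a log2 fold change above 0, with a median of 0.079, which was -0.13 with chip as a block. Prdx2, the peroxiredoxin that is abundant in red cells, had -0.15 (standard error 0.17), beside the lower summed level of red cell markers given above, whose part was not tested. Glrx, glutaredoxin 1, which removes glutathione from proteins, had 0.076 (standard error 0.21). No probe of this list had an unadjusted p under 0.05 or groups that did not overlap.

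For glutathione synthesis, use and cystine uptake, 13 of 18 tested probes had a log2 fold change above 0, with a median of 0.15. This median was 0.013 with chip as a block, 0.060 without DMSO replicate 2 and 0.32 without DMSO replicate 1. Gpx1, the cytosolic glutathione peroxidase, had 0.017 (standard error 0.19), and Gstp1, a glutathione transferase, had -0.16 (standard error 0.20). Chosen after their values were seen, Gsto1 and Gpx4 had the lowest p-values of the list. Gsto1, an omega-class glutathione transferase, gave a log2 difference of 1.34 (standard error 0.49, unadjusted p = 0.0251, limma adjusted p = 0.689), which was 2.32 with only the dim control, DMSO replicate 2, kept and 0.35 with only DMSO replicate 1 kept. Its DMSO arrays read 8.11 and 6.13, the latter on the dim chip, and its treated arrays read 8.001 to 8.92. Gsto1 differed by 2.10 between the arrays of the dim chip and by -0.10 between those of the second. Gpx4, which reduces lipid peroxides in membranes, had 0.95 (standard error 0.34, unadjusted p = 0.0251, limma adjusted p = 0.689), with 1.57 and 0.36 under the same omissions. With the dim array as the only control, the spread comes from the treated arrays alone, and of these only BRD7116 replicate 1 shares its chip. In that comparison Gsto1, Gpx4 and Mafg passed the threshold in limma, as did 8.45% of all probes tested. Between the arrays of the dim chip alone Gpx4 and Mafg differed by 1.47 and 0.87 on the log2 scale. Between those of the second chip they differed by 0.20 and 0.41. Also named after their values were seen, Chac1, which degrades glutathione, had all treated arrays above both controls (log2 fold change 0.28), and Gpx3 all below (-0.28).

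Among enzymes that supply NADPH, 6 of 9 tested probes had a log2 fold change above 0, with a median of 0.18, which was -0.061 with chip as a block. Taldo1, transaldolase, had -0.025 (standard error 0.16), and Nadk, which makes NADP from NAD, had 0.18 (standard error 0.26). Mthfd2, a mitochondrial folate enzyme and a known ATF4 target, was named after its value was seen. It was detected on 4 treated arrays and on no control, so the fitted log2 fold change of 1.22 (standard error 0.499, unadjusted p = 0.0396, limma adjusted p = 0.689) is set by controls at background, and no fold is read from it. It was 0.12 within the dim chip, where neither array detected it, and 1.501 within the second chip.

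Of the genes for heme, iron and quinone handling, 10 of 15 tested probes had a log2 fold change above 0, with a median of 0.13, which was -0.0085 without DMSO replicate 2. Fth1, the ferritin heavy chain that stores iron, had 0.098 (standard error 0.20) and Aldh2, mitochondrial aldehyde dehydrogenase, had 0.12 (standard error 0.16). All treated Aldh2 arrays, at 11.62 to 11.75, lay above the controls at 11.59 and 11.48. The constitutive heme oxygenase gene Hmox2, named after its value was seen, had 0.73 (standard error 0.31, unadjusted p = 0.0469, limma adjusted p = 0.689), with 1.61 on the dim chip and -0.14 on the second chip. For superoxide dismutases and catalase, 2 of 4 tested probes lay above 0, with a median of -0.0021. Sod1, the copper-zinc superoxide dismutase, had 0.31 (standard error 0.23). Its copper chaperone gene Ccs had -0.18 (standard error 0.17), with all treated arrays, at 8.26 to 8.48, below the controls at 8.58 and 8.54.

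Likeness of pattern was described for the 2 member probes with the highest mean level, over the 7 arrays and the probes detected on all of them. The levels of Prdx1 followed most closely those of Srsf5, Mrps7 and Vps16, with Pearson correlations of 0.962, 0.932 and 0.927. Those of Gclm followed Eif5a, Rpl34 and Rps7, with correlations of 0.988, 0.977 and 0.975. The correlations rest on 7 arrays, of which BRD7116 replicate 1 and DMSO replicate 2 lie on the dim chip. On these arrays Gclm had its lowest levels, 5.43 and 5.17, while Prdx1 read 7.14, its lowest, and 7.70. The part of the chip in the correlations was not tested, and the values describe the arrays.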

How the data were processed

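RNA of 5 BRD7116 and 2 DMSO samples, grouped by title, was measured on Illumina BeadChips. For each probe on each array the authors deposited a detection p-value and an intensity, which the file headers call not normalized. They also deposited log2 values of unstated method, whose columns have one median, 7.52, and follow the ranks of the intensities. The software that read the scans is not given in the sources used here.

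Through its neqc function, limma 3.58.1 (R 4.3.3) corrected the background, using the detection p-values to stand for negative controls, added 16, normalized by quantiles and gave log2 levels. Of 25697 probes, 8613 were detected (p under 0.05) by 2 or more arrays, and these were compared by lmFit and eBayes, two-sided, with Benjamini-Hochberg adjustment over all of them and a threshold of 0.05. Intervals are 95% and rest on few arrays. The number of arrays limits the precision, with a median half-width of 0.63 on the log2 scale. A single symbol was given for 23978 probes by the platform annotation, and a RefSeq table of GRCm38.p6, used for names, changed 0 of them.

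All member probes were named. Of each other list, the genes past the threshold were named, or otherwise the 2 detected on most arrays, ties going to the higher mean intensity. The members and lists were chosen with earlier results of these data known. Chip, from the description labels, was a block in an alternative. No label says that equal replicate numbers mark pairs, and they lay on different chips. The deviations of same-numbered arrays correlated at -0.52 and -0.32 and those of arrays on one chip at 0.52 and 0.32. With 2 controls these are mirror images and add nothing to each other, and the numbers were not used as pairs. Other settings varied the background correction, normalization, filter, values, block, weights and prior, and left out single arrays or the dim chip. Without the dim chip, DMSO replicate 1 is the only control.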

Additional observations from a re-analysis of the deposited data

Results flagged for a closer look

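For 2 of the 14 member probes, a single BRD7116 array was far from the remaining 4. Chance marks about 1 in 20 groups, here 0.7. For Gclm, BRD7116 replicate 1 read 5.43 on the log2 scale, against 6.93 to 7.38 on the other treated arrays. This array lies on the dim chip and did not detect the gene, and the DMSO array of the same chip read 5.17. For the Srxn1 probe ILMN_1229994, BRD7116 replicate 3 read 4.33, below 4.37 to 4.39 on the other treated arrays. That probe was detected on no array and has no measured level.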

How the results depend on the processing

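The number of probes past the threshold was 0 in limma, with 574 at an unadjusted p under 0.05. It was 1 with normexp, with the authors' values, with no detection filter, with detection on all arrays and without the dim chip with the normalization kept, 2 without background correction and with the trend and robust prior, and 0 to 706 when single arrays were left out, 706 being without DMSO replicate 1. No tested member probe was among the calls in any setting. The median of the member probes, -0.065, was -0.27 to -0.011 when single arrays were left out, and -0.27 without DMSO replicate 2. Median scaling raised the median of all probes by 0.46, and its values are given relative to that. Bright probes still moved up together, Park7 to 0.36 and Gpx1 to 0.37, so turns to above 0 in this setting are not specific to single genes. Srxn1 ILMN_2667346, which read 5.31 to 6.08 in the main setting, went the other way, from 0.05 to below 0. Signs turned under median scaling for Srxn1 ILMN_2667346 (-0.18), Prdx1 (0.35), Cul3 (0.31), Prdx2 (0.19), Gstp1 (0.19), Taldo1 (0.27), Ccs (0.203) and Gpx3 (0.11). With array weights they turned for Prdx1 (0.030), Slc7a11 (0.0044), Cul3 (0.041) and Park7 (-0.0054). Without the dim chip, renormalized and with the normalization kept, they turned for Srxn1 ILMN_2667346 (-0.22 and -0.19), Prdx1 (0.14 and 0.13), Slc7a11 (0.15 and 0.13), Cul3 (0.0042 and 0.0037), Gpx1 (-0.049 and -0.050) and Taldo1 (0.055 and 0.055). With chip as a block they turned for Glrx (-0.13), Nadk (-0.19) and Fth1 (-0.086), and as a random block these had -0.060, -0.065 and -0.025. The replicate block gives the same estimates as the chip block by construction, since chips and replicate numbers with treated arrays only add nothing to the difference. When single arrays were left out, the ranges that crossed 0 were -0.25 to 1.63 for Gclm, -0.28 to 0.37 for Srxn1 ILMN_2667346, -0.19 to 0.035 for Prdx1, -0.24 to 0.12 for Slc7a11, -0.074 to 0.017 for Cul3, -0.00080 to 0.14 for Glrx, -0.087 to 0.12 for Gpx1 and -0.086 to 0.033 for Taldo1. The cause was not tested. The replicate block gave 15 probes at an unadjusted p under 0.05 and 0 calls, and pairing by chip gave 1080 and 0 calls.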
